A study of Mus musculus with 22 samples.

Results

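The 9 genes described here, S100a8, S100a9, Prtn3, Elane, Mpo, Ngp, Camp, Ltf and Lcn2, encode calprotectin and proteins that neutrophils store in their granules, and they were chosen by name as members of that group. Of the 12393 genes that the arrays measured with a probe set of their own, they are 9, and each was read by 1 probe set. Signals came from arrays hybridised with biotin-labelled cRNA of loose subcutaneous connective tissue of the trunk, taken from C57BL/6 males of 19 to 24 g. There were 4 groups, ex vivo stretched and ex vivo shortened tissue of 4 animals, and in vivo stretched and in vivo shortened tissue of another 7 animals, 22 samples of 11 animals in all. Each animal gave both pieces, with the assignment randomized, so replicates were animals and the pieces of 1 animal form a pair. Neither the force nor the time of the stretch is given in the labels, and the tissue is whole, with no sorting of cells. All values are log2 signals from the deposited RMA processing, so a difference of 1 is a doubling, and the arrays carry no detection calls.

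Neutrophils are short-lived blood leukocytes that enter tissue after injury or microbial signals. Their granules are filled in sequence while the cells mature in the bone marrow, so the RNAs of granule proteases and peroxidase belong to early precursors and those of lactoferrin, cathelicidin and neutrophilic granule protein to later ones. Calprotectin, the complex of S100a8 and S100a9, binds calcium, zinc and manganese, fills much of the neutrophil cytosol, and acts on Toll-like receptor 4 when released. Lipocalin 2, the product of Lcn2, binds bacterial iron carriers and is also made by fibroblasts, adipocytes and epithelial cells under inflammatory cytokines. The factors PU.1 and C/EBP act on many myeloid promoters, which is why their motifs were looked up.

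S100a8 and S100a9 are immediate neighbours on chromosome 3, with 0 annotated genes between them, and Prtn3 and Elane are immediate neighbours on chromosome 10, again with 0 genes between them. The 250 bases before the start of the 4 genes on which the results turn are shown from the RefSeq annotation of build GRCm38.p6, with matches to PU.1 (GAGGAAGT) or C/EBP (TTGCNNAA) on either strand in capitals. They lie at chr3:90668821-90669070 on the plus strand for S100a8, chr3:90695722-90695971 on the minus strand for S100a9, chr10:79879417-79879666 on the plus strand for Prtn3 and chr2:32387740-32387989 on the minus strand for Lcn2, each printed 5′ to 3′ along the gene.
S100a8: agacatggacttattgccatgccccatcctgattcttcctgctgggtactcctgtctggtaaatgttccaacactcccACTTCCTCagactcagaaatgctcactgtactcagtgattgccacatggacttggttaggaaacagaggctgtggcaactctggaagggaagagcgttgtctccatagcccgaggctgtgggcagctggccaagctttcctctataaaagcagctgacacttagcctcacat
S100a9: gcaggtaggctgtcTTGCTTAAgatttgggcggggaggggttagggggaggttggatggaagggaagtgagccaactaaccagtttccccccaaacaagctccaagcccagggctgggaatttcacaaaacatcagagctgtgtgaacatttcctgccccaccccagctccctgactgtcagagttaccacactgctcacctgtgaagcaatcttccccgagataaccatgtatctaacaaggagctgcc
Prtn3: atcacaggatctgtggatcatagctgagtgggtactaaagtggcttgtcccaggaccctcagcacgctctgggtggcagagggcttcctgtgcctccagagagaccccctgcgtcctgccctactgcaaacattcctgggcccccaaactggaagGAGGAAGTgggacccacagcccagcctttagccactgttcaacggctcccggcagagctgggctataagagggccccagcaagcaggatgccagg
Lcn2: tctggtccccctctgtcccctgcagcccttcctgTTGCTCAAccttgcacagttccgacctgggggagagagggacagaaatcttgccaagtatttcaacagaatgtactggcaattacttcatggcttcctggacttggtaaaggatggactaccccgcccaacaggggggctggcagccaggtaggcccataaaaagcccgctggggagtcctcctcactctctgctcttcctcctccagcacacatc
In S100a8 the capitals mark a PU.1 match on the reverse strand, 172 to 165 bases before the start, and in Prtn3 a PU.1 match on the forward strand, 95 to 88 bases before it. In S100a9 they mark a C/EBP match at 236 to 229 bases and in Lcn2 one at 216 to 209 bases. Among the other members Elane held a PU.1 match at 85 to 78 bases and Mpo one at 224 to 217 bases. Ngp held C/EBP matches at 138 to 131 and at 11 to 4 bases, and Ltf held one at 75 to 68 bases. Camp held neither motif, and the NF-kB consensus was found in none of the 9 windows. Of 32851 promoter windows of this length 2.44% held the PU.1 letters, 9.56% the C/EBP letters and 3.9% the NF-kB consensus. No match of one motif overlapped a match of another in these genes. A match describes the letters only.

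The arrays of the settings differed as wholes. Sample medians lay between 6.85 and 6.90 ex vivo and between 7.28 and 7.41 in vivo, which is how separate normalization of the settings would look. RNA quality, read as the excess of the Gapdh control probe at the 3' end over that at the 5' end, ranged from 0.05 to 0.91 ex vivo and from 0.11 to 3.61 in vivo. Skeletal muscle RNA varied most between pieces, with a mean of 15 marker genes from 4.98 to 11.64 in ex vivo stretched, from 5.12 to 6.14 in ex vivo shortened, from 5.24 to 12.53 in in vivo stretched and from 5.31 to 11.96 in in vivo shortened tissue. No pair of samples was identical.

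The in vivo comparison set stretched against shortened tissue of the same animal. S100a8, S100a9 and Prtn3 were higher in the stretched piece of 7 of 7 animals, by 1.43-fold, 1.51-fold and 1.79-fold on average. None of the other members had 1 direction in all 7 animals. Mpo and Lcn2 were higher in 6, Elane and Ltf in 5, Ngp in 4 and Camp in 3 of 7 animals. No member passed the limma test after Benjamini-Hochberg adjustment over all 22626 probes, nor did any probe of the array (0%), while 4373 probes had an unadjusted p under 0.05. The share of all probes higher in every pair was 1.34%, against 3 of these 9. The share higher with an unadjusted p under 0.05 was 7.95%, against 4 of these 9. The members were chosen with earlier results of these data known. These shares and the sign-flip tests below are therefore descriptions and no independent support.

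**Figure D1:**
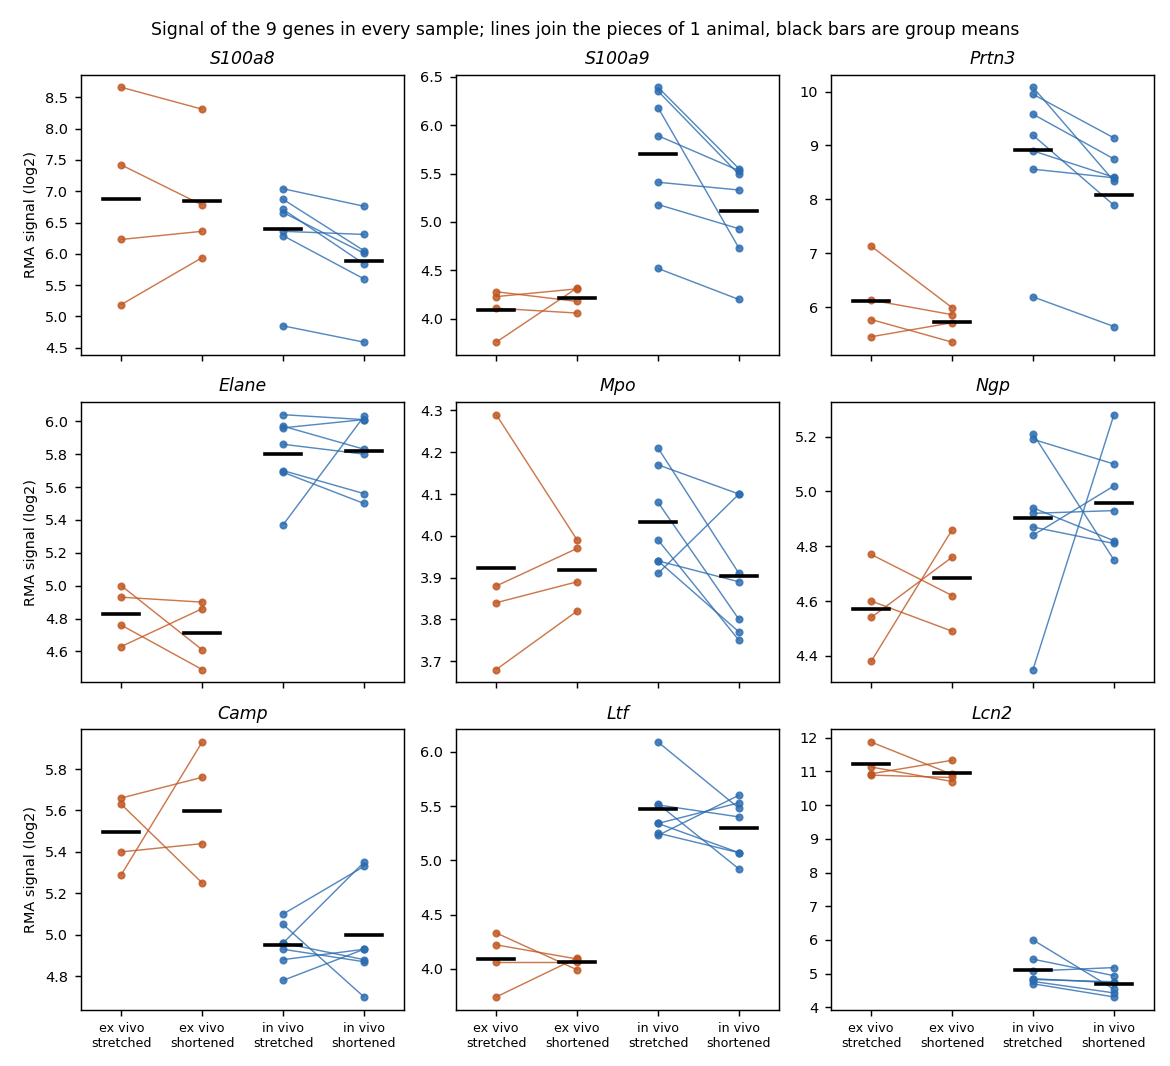
Each panel plots the log2 RMA signal of 1 gene (vertical axis, own scale) in the 4 groups, with a point for each sample, a line joining the pieces of each animal and a black bar at the group mean. Lcn2 sits between 10.70 and 11.87 ex vivo and between 4.31 and 6.00 in vivo, and all lines of S100a8, S100a9 and Prtn3 in vivo slope down towards the shortened piece.

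Among the calprotectin genes, S100a8 encodes the smaller partner of the complex. Its signal ranged from 4.85 to 7.04 with a median of 6.66 in stretched tissue in vivo, against 4.59 to 6.76 with a median of 6.01 in shortened tissue. These ranges overlapped, and the order shows only within animals. The differences in animals 1 to 7 were 0.27, 0.69, 0.86, 0.82, 0.65, 0.28 and 0.06, so animals 2 to 5 carried most of the mean and animal 7 almost none. The limma estimate was 0.52 ± 0.10 (SE, n = 7 animals, 95% interval 0.28 to 0.75) with adjusted p = 0.172, and an exact two-sided sign-flip test gave p = 0.0156, the smallest that 7 pairs allow. By limma's unadjusted p the gene was number 53 of all 22626 probes. Its probe set is of the kind that can match transcripts of more than 1 gene, as its name's suffix shows.

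S100a9, the larger partner, behaved alike in direction. Its signal ranged from 4.52 to 6.39 with a median of 5.89 in stretched tissue, against 4.20 to 5.55 with a median of 5.33 in shortened tissue. These are low signals, at mean percentiles among all probes of 31.4 and 25.0. Differences in animals 1 to 7 were 0.32, 0.25, 1.45, 0.84, 0.86, 0.36 and 0.08. Animal 3 had the widest gap and animal 7 the narrowest. The estimate was 0.59 ± 0.15 (SE, n = 7 animals, 95% interval 0.26 to 0.93) with limma's adjusted p = 0.172, and the exact two-sided sign-flip p was 0.0156. Across the 7 animals the differences of S100a8 and S100a9 had Pearson r = 0.78 (exact permutation p = 0.0351, adjusted 0.0545 over 3 pairs of genes) and Spearman rho = 0.71 (exact p = 0.0881, adjusted 0.132), and r was 0.65 without animals 1 and 7.

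Of the granule proteases, Prtn3, which encodes proteinase 3 of azurophil granules, moved most among the members. Its signal ranged from 6.19 to 10.08 with a median of 9.19 in stretched tissue, against 5.64 to 9.14 with a median of 8.40 in shortened tissue. Animal 1 stood far below the other 6 in both pieces, at 6.19 and 5.64. Differences in animals 1 to 7 were 0.55, 1.29, 1.74, 0.83, 0.81, 0.16 and 0.49. The estimate was 0.84 ± 0.16 (SE, n = 7 animals, 95% interval 0.48 to 1.20) with limma's adjusted p = 0.172, the exact two-sided sign-flip p was 0.0156, and the gene was number 33 of all probes by unadjusted p. The differences of S100a8 and Prtn3 had r = 0.78 (exact permutation p = 0.0363, adjusted 0.0545) and rho = 0.86 (exact p = 0.0238, adjusted 0.0714), and r was 0.83 without animals 1 and 7. For S100a9 and Prtn3 r was 0.67 (exact permutation p = 0.0978) and rho 0.46 (exact p = 0.302), and r fell to 0.13 without animals 3 and 5, so that relation rests on those animals.

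Elane, the neutrophil elastase gene next to Prtn3, differed from its neighbour in pattern. Its signal ranged from 5.37 to 6.04 with a median of 5.86 in stretched tissue, against 5.50 to 6.03 with a median of 5.83 in shortened tissue. The estimate was -0.02 ± 0.10 (SE, n = 7 animals, 95% interval -0.24 to 0.20), limma's adjusted p was 0.934, and 5 of 7 animals were higher. Animal 1 fell by 0.66, and without it the estimate was 0.09. Mpo, which encodes the myeloperoxidase of the same granules, ranged from 3.91 to 4.21 in stretched and from 3.75 to 4.10 in shortened tissue. It was higher in 6 of 7 animals by a small amount, 0.13 ± 0.07 (SE, 95% interval -0.02 to 0.28), with adjusted p = 0.32 and an exact two-sided sign-flip p of 0.0938. Signals were low, with mean percentiles among all probes in stretched and shortened tissue of 32.7 and 33.1 for Elane and 12.9 and 11.7 for Mpo.

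The genes of later granules did not separate the pieces, and their signals were low. Mean percentiles among all probes in stretched and shortened tissue were 22.3 and 22.9 for Ngp, 22.7 and 23.5 for Camp, and 28.7 and 27.0 for Ltf. Without detection calls, whether these RNAs were detected is not known. Ngp, which encodes neutrophilic granule protein, ranged from 4.35 to 5.21 in stretched and from 4.75 to 5.28 in shortened tissue, a difference of -0.06 ± 0.14 (SE, 95% interval -0.36 to 0.25). Camp, the cathelicidin gene, ranged from 4.78 to 5.10 in stretched and from 4.70 to 5.35 in shortened tissue, a difference of -0.05 ± 0.09 (SE, 95% interval -0.24 to 0.14). Ltf, the gene of the iron-binding protein lactoferrin, ranged from 5.23 to 6.09 in stretched and from 4.92 to 5.60 in shortened tissue, a difference of 0.17 ± 0.12 (SE, 95% interval -0.09 to 0.44). Ngp was higher in 4, Camp in 3 and Ltf in 5 of 7 animals, and limma's adjusted p was 0.86, 0.809 and 0.452 in that order. A p above the threshold does not show that these genes were alike in both pieces, and each interval spans values on both sides of 0.

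Lcn2 ranged from 4.70 to 6.00 with a median of 4.85 in stretched tissue in vivo, against 4.31 to 5.18 with a median of 4.73 in shortened tissue. Differences in animals 1 to 7 were 0.34, 0.08, 0.49, 1.46, 0.39, 0.13 and -0.10. Animal 4 stood apart from the rest and decided the size. The estimate was 0.40 ± 0.16 (SE, n = 7 animals, 95% interval 0.04 to 0.75) with limma's adjusted p = 0.218 and an exact two-sided sign-flip p of 0.0469. Without animal 4 it was 0.22, and over the 7 fits that leave out 1 animal the adjusted p ran from 0.164 to 0.453.

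**Figure D2:**
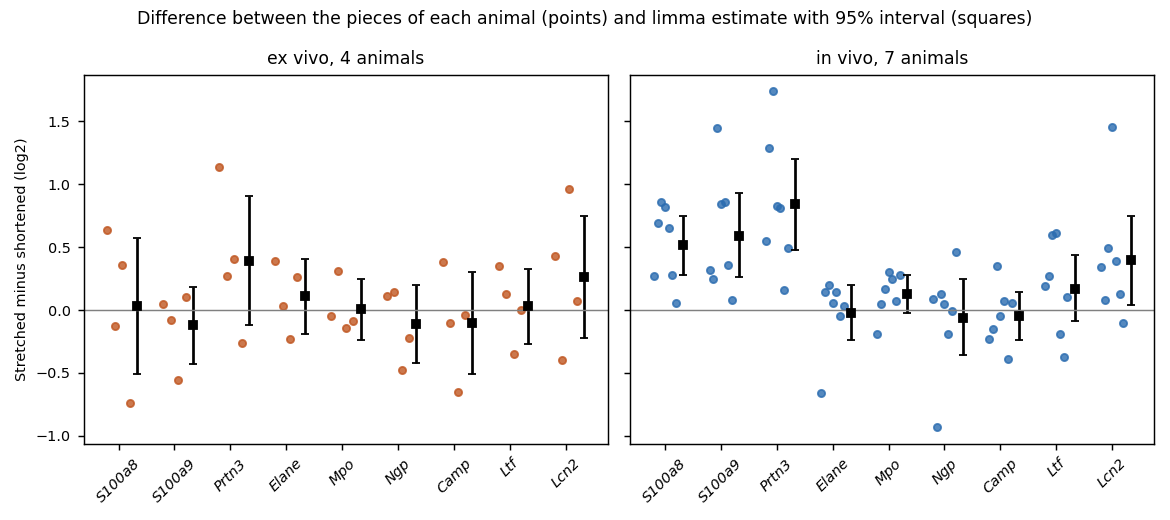
Points are the stretched minus shortened difference of each animal in log2 units (vertical axis) for the 9 genes, ex vivo on the left and in vivo on the right, and squares with bars are the limma estimate and its 95% interval. Ex vivo no gene has all 4 points on 1 side of 0, whereas in vivo every point of S100a8, S100a9 and Prtn3 lies above 0.

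RNA quality split the in vivo animals into a low Gapdh set (animals 1 to 3) and a higher one (animals 4 to 7). The pieces of animal 7 were unlike, at 0.87 in stretched and 2.96 in shortened tissue. The difference of Prtn3 was 1.19 in animals 1 to 3 and 0.57 in animals 4 to 7. That of S100a8 was 0.61 and 0.45, and that of S100a9 0.67 and 0.53, in the same order of sets. Thus the 3 genes were on average higher in stretched tissue in both sets, and the size for Prtn3 differed between them by more than for the calprotectin genes. A difference between the sets, and whether RNA quality bears on these values, was not tested. In bulk tissue more cells of a type and more RNA per cell cannot be told apart.

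No probe of the array was called in vivo, so 0 calls in a list sets that list apart from nothing. Of 14 measured mature neutrophil markers, from a list of 20, 5 were higher and 9 lower in stretched tissue, and limma called 0. Over all 12393 genes 5549 were higher and 6844 lower. The median difference of the markers was -0.02, against -0.01 over all genes and 0.17 over the 9 members. An unadjusted limma p under 0.05 was found for 5 of the 14, against 2695 of 12393 genes. The list mean ranged from 6.13 to 6.51 with a median of 6.26 in stretched tissue, against 6.16 to 6.43 with a median of 6.30 in shortened tissue. Its differences in animals 1 to 7 were 0.08, -0.01, -0.15, -0.00, -0.08, -0.10 and 0.08. The mean joins low and high signals, with in vivo stretched medians of 4.67 for Cxcr2 and 13.02 for Il1r2. A relation of the list to S100a8, S100a9 or Prtn3 was not tested. The smallest p values in the list belonged to the cystatin gene Stfa3 (0.25 ± 0.07), the decoy receptor gene Il1r2 (-0.20 ± 0.06), the collagenase gene Mmp8 (0.28 ± 0.10) and the selectin ligand gene Selplg (-0.22 ± 0.09), each as SE with n = 7 and none past the threshold.

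Signals of genes that mark neutrophils covered a wide range. In ex vivo stretched, ex vivo shortened, in vivo stretched and in vivo shortened tissue the chemokine receptor gene Cxcr2 had medians of 4.86, 4.76, 4.67 and 4.62, and the cathepsin G gene Ctsg 4.70, 4.82, 4.45 and 4.48. Mmp8 had 3.91, 3.99, 4.37 and 4.22 in the same order. In contrast the receptor gene Csf3r had 8.71, 8.39, 8.11 and 8.18, Selplg 8.70, 8.13, 10.07 and 10.16, and Il1r2 10.82, 10.57, 13.02 and 13.16. In stretched tissue Clec4d had medians of 11.49 ex vivo and 5.13 in vivo, and Stfa3 9.25 ex vivo and 3.28 in vivo. These genes were picked after their values were seen, levels of different probe sets cannot be compared with each other, and which cells gave the signal of the 9 genes was not tested.

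Other granule genes, among them oxidase subunits, lysozyme and integrins, were higher for 4 and lower for 11 of 15 measured genes of 19 in stretched tissue in vivo. Their median was -0.09, 0 were called, and 9 of the 15 had an unadjusted limma p under 0.05. Over all 12393 genes 6844 were lower and 2695 had such a p, for this list and the macrophage list below. The integrin subunit genes Itgam (-0.34 ± 0.10) and Itgb2 (-0.24 ± 0.08), the oxidase gene Cybb (-0.32 ± 0.12) and Mmp8, which stands in this list too, had the smallest p values. Macrophages also express these integrins and Cybb. Of 10 macrophage genes 10 were lower, with a median of -0.14 and 0 called, among them Cd68 (-0.27 ± 0.08) and the Fc receptor gene Fcgr1 (-0.25 ± 0.09). For 6 of the 10 the unadjusted limma p was under 0.05. The list mean of macrophage genes ranged from 11.45 to 12.01 in stretched tissue, against 11.57 to 12.06 in shortened tissue.

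Genes for calprotectin receptors, other S100 proteins and neutrophil recruitment, like every probe of the array, gave no call in vivo. Of 13 measured genes for calprotectin receptors and other S100 proteins 4 were higher and 9 lower, with a median of -0.09. An unadjusted limma p under 0.05 was found for 5 of the 13. Over all 12393 genes 6844 were lower and 2695 had such a p. S100a1, an S100 gene of striated muscle, differed by 0.34 ± 0.09, and S100a4, an S100 gene of fibroblasts and leukocytes, by -0.26 ± 0.07. The lipid scavenger receptor gene Cd36 differed by 0.29 ± 0.10. Of 15 genes for cytokines, chemokines and adhesion molecules that recruit neutrophils, 7 were higher and 8 lower, with a median of -0.00 and 0 unadjusted p under 0.05. The smallest p values there were those of the growth factor gene Csf1 (-0.11 ± 0.06) and of Il1b (0.12 ± 0.07).

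Lists of other cells were set beside the 3 genes. Over all 12393 genes 5549 were higher and 6844 lower in stretched tissue in vivo. Red cell genes were higher for 4 and lower for 3 of 7 (median 0.10), with the haem synthesis gene Alas2 at 0.39 ± 0.21 and the globin gene Hbb-b2 at 0.10 ± 0.06. Platelet genes were higher for 4 and lower for 2 of 6 (median 0.02), with the platelet chemokine genes Ppbp at 0.50 ± 0.15 and Pf4 at -0.06 ± 0.04. The red cell mean ranged from 5.02 to 5.95 in stretched and from 5.24 to 5.89 in shortened tissue, and was higher in 6 of 7 animals. With the red cell mean of each sample as a covariate S100a8 differed by 0.41, S100a9 by 0.52 and Prtn3 by 0.73, against 0.52, 0.59 and 0.84 without it. Skeletal muscle genes were higher for 15 of 15 with a median of 2.21, and the muscle mean differed in animals 1 to 7 by -0.07, 1.08, 1.64, -0.01, 5.68, 3.93 and 1.89. With muscle content as a covariate the 3 genes differed by 0.54, 0.54 and 0.95 in the same order. Animals 1 and 4 had muscle differences near 0. Their differences in S100a8, S100a9 and Prtn3 were 0.27, 0.32 and 0.55 in animal 1 and 0.82, 0.84 and 0.83 in animal 4. Whether muscle content bears on the 3 genes was not tested.

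Keratinocytes make calprotectin too, and skin lies over this tissue. Of 12 keratinocyte genes 8 were higher and 4 lower, with a median of 0.06, and Krtdap, a gene of differentiating keratinocytes, differed by -1.27 ± 0.17 and Krt15 by 0.26 ± 0.14 (SE, n = 7). The keratinocyte mean ranged from 4.71 to 5.52 in stretched and from 4.91 to 5.24 in shortened tissue. With it as a covariate S100a8 differed by 0.52, S100a9 by 0.60 and Prtn3 by 0.83. The mean joins low and higher signals. Mean percentiles in in vivo stretched tissue were 1.65 for Flg, 8.47 for Dsp and 10.4 for Krt17, against 54.6 for Krtdap and 62.3 for Krt10. It may therefore follow keratinocyte content poorly, and whether that content bears on the 3 genes was not tested. Fibroblast genes were lower for 9 of 9 (median -0.12), lymphocyte genes higher for 5 and lower for 3 of 8 (median 0.05), and genes of proliferating marrow progenitors higher for 2 and lower for 5 of 7 (median -0.01). Across these lists 0 genes were called, as on the whole array. Over all 12393 genes 5549 were higher and 6844 lower. An unadjusted limma p under 0.05 was found for 14 of 15 skeletal muscle, 6 of 9 fibroblast and 0 of 7 red cell genes, against 2695 of 12393 genes. The platelet, keratinocyte, lymphocyte and marrow progenitor lists had 1 such gene each.

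**Figure D3:**
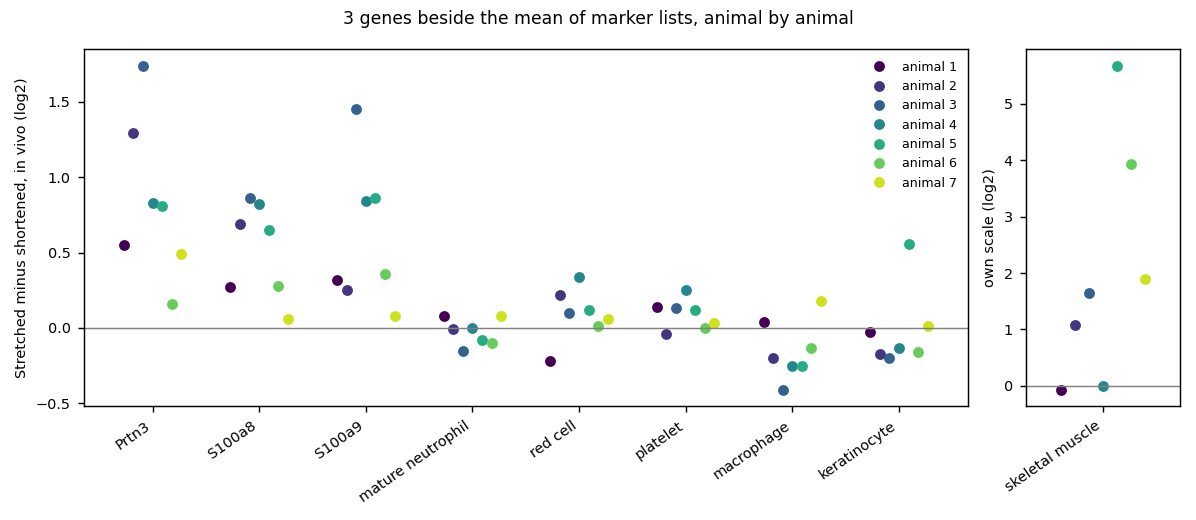
Each point is the stretched minus shortened difference of 1 in vivo animal in log2 units (vertical axis), for 3 genes and for the mean of marker lists, with skeletal muscle on a scale of its own at the right. Animals 2 to 5 are highest for S100a8, the mature neutrophil list stays between -0.15 and 0.08, and the muscle list runs from -0.07 to 5.68.

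The ex vivo comparison set stretched against shortened tissue of 4 other animals. No member was higher in all 4 pairs, 0 of 9 against 10.8% of probes higher in every pair. None was lower in all 4 pairs either, and the share of probes lower in every pair was not counted. Limma called neither a member nor any other probe (0%). At an unadjusted p under 0.05 there were 2508 probes and 0 members. With 4 pairs an exact sign-flip test cannot reach a p under 0.05.

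S100a8 had signals of 7.42, 6.23, 8.66 and 5.19 in the stretched pieces of animals 1 to 4 ex vivo, against 6.78, 6.36, 8.31 and 5.94 in the shortened pieces. Animal 3 was high and animal 4 low in both pieces, and the difference changed sign between animals. The estimate was 0.03 ± 0.22 (SE, n = 4 animals, 95% interval -0.51 to 0.57), an interval that holds the in vivo estimate of 0.52. S100a9 had signals of 4.11, 4.23, 3.76 and 4.28 in stretched, against 4.06, 4.31, 4.32 and 4.18 in shortened pieces. These were low, at mean percentiles among all probes of 17.6 and 18.9, and whether the RNA was detected ex vivo is not known. The S100a9 estimate was -0.12 ± 0.13 (SE, 95% interval -0.43 to 0.18), with animal 3 alone lower by 0.56 and all others within 0.10 of 0. That interval lies below the in vivo estimate of 0.59, but signals this low may not show a difference.

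Prtn3 had signals of 7.13, 6.13, 5.77 and 5.45 in stretched pieces ex vivo, against 5.99, 5.86, 5.35 and 5.71 in shortened pieces. It was higher in 3 of 4 animals, by 0.39 ± 0.22 (SE, n = 4, 95% interval -0.12 to 0.91), with limma's adjusted p = 0.552, the smallest among the members. Without animal 1 the estimate was 0.14. Lcn2 had signals of 11.13, 10.93, 11.87 and 10.89 in stretched, against 10.70, 11.33, 10.91 and 10.82 in shortened pieces. It was higher in 3 of 4 animals, by 0.26 ± 0.20 (SE, 95% interval -0.22 to 0.75), with animal 3 highest. The estimates were 0.11 ± 0.13 for Elane, 0.01 ± 0.10 for Mpo, -0.11 ± 0.13 for Ngp, -0.10 ± 0.17 for Camp and 0.03 ± 0.13 for Ltf.

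Related genes, like every probe of the array, gave no call ex vivo. Over all 12393 genes 6491 were higher and 5902 lower in stretched tissue. Mature neutrophil genes were higher for 9 and lower for 5 of 14 with a median of 0.02, and Hdc, the histidine decarboxylase gene, differed by -0.30 ± 0.11 and the peptidoglycan recognition gene Pglyrp1 by -0.64 ± 0.31. Other granule genes were higher for 7 and lower for 8 of 15, with the protease inhibitor gene Slpi at 0.43 ± 0.11 and the lysozyme gene Lyz2 at -0.41 ± 0.30. Recruitment genes were higher for 7 and lower for 8 of 15 with a median of -0.14, among them the chemokine gene Cxcl2 (-0.51 ± 0.14), Il1b (0.43 ± 0.15) and the E-selectin gene Sele (-1.19 ± 0.47). In the list of receptors and other S100 genes 8 were higher and 5 lower, among them S100a6 (0.32 ± 0.09), the gene of the LPS coreceptor Cd14 (0.27 ± 0.08) and S100b (-0.50 ± 0.17), all as SE with n = 4. Macrophage genes were higher for 4 and lower for 6 of 10, with the scavenger receptor gene Cd163 at -1.0 ± 0.18 and Csf1r at -0.63 ± 0.12.

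Whether the stretch effect differed between settings was tested with an interaction term on all 22 samples. S100a9 had the smallest p among the members, with an ex vivo minus in vivo difference of -0.72 ± 0.24 (SE, 95% interval -1.23 to -0.21), an unadjusted p of 0.00945 and limma's adjusted p = 0.178. Ex vivo its signals were low, at mean percentiles of 17.6 in stretched and 18.9 in shortened tissue. S100a8 differed by -0.49 ± 0.24 (SE, 95% interval -1.01 to 0.03, adjusted p = 0.355) and Prtn3 by -0.45 ± 0.29 (SE, 95% interval -1.08 to 0.19, adjusted p = 0.506). The other 6 members ran from -0.14 to 0.13. None of the 9 was called, against 0.177% of all probes (40 of them), a count that lay between 0 and 663 under the alternatives. A stretch response that differs between the settings was thus not shown for any member.

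Tissue held ex vivo was also compared with tissue held in vivo, separately for stretched and shortened pieces and with the median change over the whole array subtracted, which was -0.38 as deposited in both. The animals differ between the settings and the arrays look normalized apart, so setting and batch cannot be told apart. Lcn2 changed most among the members, by about 90-fold in stretched and 98.7-fold in shortened tissue as measured. Its in vivo signals were low and carry no detection call, so these folds are not exact. Camp and Mpo were higher ex vivo as well, while Prtn3, Elane and Ltf were lower, in both kinds of tissue. S100a8 was called higher in shortened tissue and S100a9 called lower in stretched tissue. In stretched tissue limma called 3 members higher and 4 lower, against 32.6% and 32% of all probes, and in shortened tissue 4 higher and 3 lower, against 33.5% and 33.9%. With about that share of the array called in each direction, the members' counts are near the background, and the sizes carry the information.

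**Figure D4:**
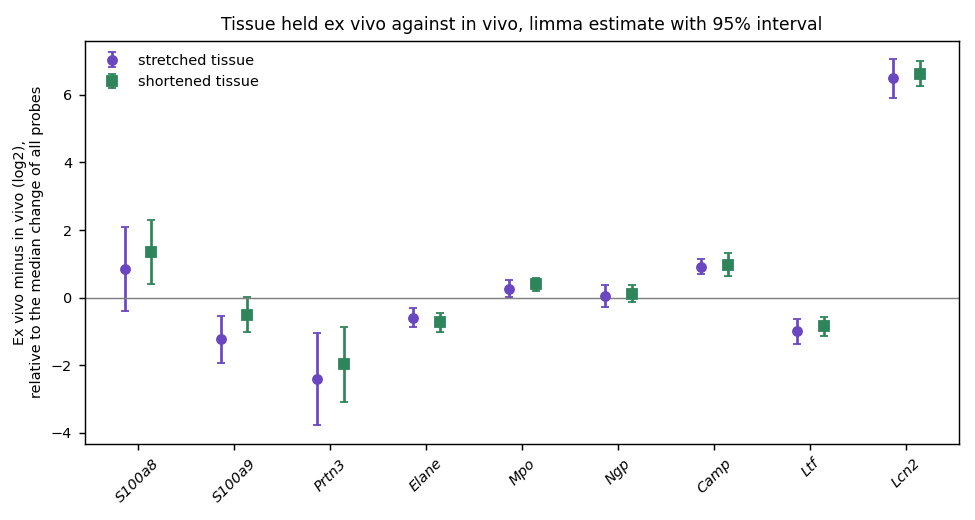
Points with bars are limma estimates and 95% intervals of the ex vivo minus in vivo change in log2 units after subtraction of the array's median change (vertical axis), for the 9 genes in stretched (circles) and shortened tissue (squares). Lcn2 stands at 6.49 and 6.62, and Prtn3 at -2.42 and -1.97.

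Lcn2 had a mean signal of 11.2 ± 0.46 (SD, n = 4) in ex vivo stretched and 10.94 ± 0.28 (SD, n = 4) in ex vivo shortened tissue, against 5.09 ± 0.47 (SD, n = 7) in in vivo stretched and 4.70 ± 0.30 (SD, n = 7) in in vivo shortened tissue. The lowest ex vivo value was 10.70 and the highest in vivo value 6.00, so the settings did not overlap. The share of all probes without overlap between the settings was not counted. Of all probes 32.6% were called higher ex vivo in stretched and 33.5% in shortened tissue, so a lack of overlap alone does not set the gene apart. The change was 6.49 ± 0.26 (SE, adjusted p = 1.34e-09) in stretched and 6.62 ± 0.17 (SE, adjusted p = 2.72e-11) in shortened tissue. Without subtracting the median change it was 6.11 and 6.24. By unadjusted p the gene was number 139 of all probes in stretched and number 32 in shortened tissue.

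Of the calprotectin genes, neither was called in both tissues. S100a8 had a mean of 6.88 ± 1.50 (SD, n = 4) in ex vivo stretched and 6.85 ± 1.03 (SD, n = 4) in ex vivo shortened tissue, against 6.40 ± 0.73 (SD, n = 7) and 5.88 ± 0.68 (SD, n = 7) in the matching in vivo tissue. Its change was 0.86 ± 0.57 (SE, adjusted p = 0.203) in stretched and 1.35 ± 0.44 (SE, adjusted p = 0.0167) in shortened tissue. Without the ex vivo shortened piece of animal 3, which had 8.31, shortened tissue gave 0.86 with adjusted p = 0.0636, and without the ex vivo stretched piece of animal 4, which had 5.19, stretched tissue gave 1.42 with adjusted p = 0.0339. Over all fits that leave out 1 sample the adjusted p ran from 0.0339 to 0.682 in stretched and from 0.0086 to 0.0636 in shortened tissue. Without the median subtraction S100a8 was 0.48 in stretched and 0.97 in shortened tissue (adjusted p = 0.466 and 0.0658).

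S100a9 had a mean of 4.09 ± 0.23 (SD, n = 4) in ex vivo stretched and 4.22 ± 0.12 (SD, n = 4) in ex vivo shortened tissue, against 5.70 ± 0.70 (SD, n = 7) and 5.11 ± 0.51 (SD, n = 7) in the matching in vivo tissue. Its change was -1.23 ± 0.32 (SE, adjusted p = 0.00509) in stretched and -0.51 ± 0.24 (SE, adjusted p = 0.0739) in shortened tissue. The ex vivo signals of S100a9 were low, at mean percentiles of 17.6 and 18.9 in that order, and carry no detection call. Without the in vivo shortened piece of animal 1, which had 4.20, shortened tissue gave -0.67 with adjusted p = 0.00386, within a range of 0.00386 to 0.156 over the fits that leave out 1 sample. Without the median subtraction S100a9 was -1.61 in stretched and -0.89 in shortened tissue (adjusted p = 0.000681 and 0.00443). The estimates of the partners had opposite signs, but a contrast between the genes was not tested.

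Prtn3 had a mean of 6.12 ± 0.73 (SD, n = 4) in ex vivo stretched and 5.73 ± 0.27 (SD, n = 4) in ex vivo shortened tissue, against 8.92 ± 1.32 (SD, n = 7) and 8.08 ± 1.14 (SD, n = 7) in the matching in vivo tissue. It was lower ex vivo by 5.35-fold in stretched tissue, with a change of -2.42 ± 0.63 (SE, adjusted p = 0.00472), and by 3.92-fold in shortened tissue, with -1.97 ± 0.51 (SE, adjusted p = 0.00445). The in vivo pieces of animal 1 lay inside the ex vivo range, and those of the other 6 in vivo animals, from 7.89 to 10.08, lay above the highest ex vivo value of 7.13. Elane fell as well, by 0.59 on the log2 scale in stretched (adjusted p = 0.00201) and by 0.72 in shortened tissue (adjusted p = 0.000352), and without the median subtraction its changes were -0.97 and -1.11. Mpo was higher by 0.27 ± 0.11 (adjusted p = 0.0459) in stretched and 0.40 ± 0.09 (adjusted p = 0.00132) in shortened tissue. Its direction rests on the scale, as the change was -0.11 in stretched and 0.02 in shortened tissue without the median subtraction, and 8 of 11 fits that leave out 1 sample lost the call in stretched tissue (adjusted p from 0.0207 to 0.144).

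Among the later granule genes, Ltf had signals of 4.33, 4.22, 3.74 and 4.06 in ex vivo stretched and 3.99, 4.09, 4.10 and 4.06 in ex vivo shortened tissue, below every in vivo value (lowest 4.92). How many of all probes lack overlap in this way was not counted, and 32% in stretched and 33.9% in shortened tissue were called lower. The change of Ltf was -1.0 ± 0.17 (SE, adjusted p = 0.000193) in stretched and -0.85 ± 0.13 (SE, adjusted p = 0.000115) in shortened tissue. Camp went the other way. It had 5.63, 5.66, 5.29 and 5.40 in ex vivo stretched and 5.25, 5.76, 5.93 and 5.44 in ex vivo shortened tissue, against in vivo medians of 4.96 in stretched and 4.93 in shortened tissue, and changed by 0.92 ± 0.10 (SE, adjusted p = 4.86e-06) in stretched and 0.98 ± 0.16 (SE, adjusted p = 0.000133) in shortened tissue. Without the median subtraction Camp changed by 0.54 and 0.60 (adjusted p = 0.000318 and 0.00442). Ngp changed by 0.05 ± 0.15 (adjusted p = 0.772) and 0.11 ± 0.11 (adjusted p = 0.411) in the same order, and turned to -0.33 and -0.27 without the median subtraction.

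Genes that recruit neutrophils were higher ex vivo as a group. In each of stretched and shortened tissue 13 of 15 were called higher and 2 lower, with median changes of 2.33 and 2.25 against -0.08 and -0.09 over all genes. Of all probes 32.6% were called higher and 32% lower in stretched tissue, and 33.5% and 33.9% in shortened tissue. The examples that follow were chosen after their values were seen. The neutrophil chemokine gene Cxcl5 changed by 9.88 ± 0.12 in stretched and 9.54 ± 0.10 in shortened tissue, Cxcl1 by 6.62 ± 0.46 and 7.03 ± 0.41, Il6 by 6.97 ± 0.41 and 7.24 ± 0.37, and the granulocyte growth factor gene Csf3 by 3.82 ± 0.23 and 3.65 ± 0.24.

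Markers of the neutrophil itself did not move in 1 direction between settings. Of 14 mature neutrophil genes 8 were called higher and 3 lower in each tissue, with medians of 0.66 in stretched and 0.61 in shortened tissue. These counts and those that follow stand against the 32.6% and 32% of all probes called higher and lower in stretched and the 33.5% and 33.9% in shortened tissue. The receptor genes Csf3r, at 0.83 ± 0.25 and 0.75 ± 0.19, and Cxcr2, at 0.48 ± 0.10 and 0.47 ± 0.11, rose by less than the lectin gene Clec4d, at 6.45 ± 0.21 and 6.22 ± 0.19, or Stfa3, at 6.31 ± 0.20 and 6.45 ± 0.13, while Il1r2 fell, at -1.68 ± 0.12 and -2.17 ± 0.12 in the same order. Without the median subtraction every one of these changes is lower by 0.38, and that shift is most of the change of Cxcr2. Of 15 other granule genes 2 were called higher and 11 lower in stretched tissue, and 3 higher and 11 lower in shortened tissue, with medians of -1.54 and -1.77. Slpi rose by 4.02 ± 0.14 and 3.63 ± 0.15, and Itgam changed by -3.03 ± 0.34 and -3.20 ± 0.22. Macrophage genes fell beside them, with 1 of 10 called higher and 8 lower in each tissue, and red cell genes with 0 called higher and 5 of 7 lower in each.

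The genes most like S100a9, Ngp and Prtn3 were listed by Pearson r of deviations from the group means over the 22 samples, among 12392 other genes, as a description. The samples share animals in pairs, and in vivo animal 1 weighs heavily. For S100a9 they were Bcar3 (0.93), Dab2ip (0.92), Osmr (0.92), Ctf1 (0.91) and Prps1 (0.91). Without in vivo animal 1 these values were 0.87, 0.88, 0.82, 0.84 and 0.80. Over the 8 ex vivo samples the r of S100a9 was -0.57 with S100a8 and -0.09 with Prtn3, whereas over the 14 in vivo samples it was 0.87 with S100a8 and 0.86 with Prtn3. Over all 22 samples these were 0.43 and 0.79, and without in vivo animal 1 they were 0.07 and 0.49.

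For Prtn3 the 5 were Adipor2, Aplnr, H6pd and Ankef1, each at 0.92, and Tmbim6 at 0.91. Without in vivo animal 1 they were 0.72, 0.74, 0.83, 0.73 and 0.64 in that order. Ankef1 differed in the in vivo stretch comparison by 0.66 ± 0.18 and Aplnr, the apelin receptor gene, by 0.50 ± 0.19, both as SE with n = 7 and neither past the threshold. For Ngp the 5 were Sytl1 (0.83), Nfatc2 (0.82), 1700102P08Rik (0.78), Kcnip2 (0.78) and Htr1b (0.77), and none of the other 8 members was among them.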

How the data were processed

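Arrays of 22 samples were processed by the authors with RMA and the affy package, per the submitters' processing notes, versions not given in the sources used here. The deposited values are on the log2 scale, from 1.89 to 14.4, one value per probe set. Of 22690 probe sets, 64 controls were left out and 22626 tested, 20380 with 1 gene symbol, 691 with several and 1555 with none. Each member had 1 probe set carrying its symbol alone.

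All comparisons used limma (version 3.58.1, R 4.3.3), by lmFit and eBayes with trend. P-values were adjusted by Benjamini-Hochberg across the tested probe sets, with 0.05 as the threshold. Fits within a setting had the animal as a block, taken from the replicate number in the sample titles and the stated comparison within animals. The deviations of an animal's pieces correlated with r of 0.385 to 0.867 in vivo and 0.109 to 0.284 ex vivo. Setting comparisons had no block and were centred on the median change of all probe sets. Exact two-sided sign flips over animals stand beside the members. The members and the 12 gene lists, with the rule for named genes (up to 4 of smallest p per list in the stretch comparisons, where any are named), were chosen with earlier results of these data known. The fits were tested on simulated data. Alternatives were quantile normalization, no trend, probe sets with a mean of at least 6, no block, marker content as a covariate, all samples in 1 fit, the RNA quality sets, no centring and each replicate left out. The number of arrays limits the precision, and no array batch or scan date was given.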

Additional observations from a re-analysis of the deposited data

Results flagged for a closer look

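Single samples stood apart from the rest of their group in 6 of 54 groups of sample values or pair differences, by a gap too wide for Dixon's test at the 95% level, which chance passes in about 1 of 20. In vivo animal 1 accounts for 4 of them. Its stretched piece was low in S100a8 (4.85) and in Prtn3 (6.19), its shortened piece was low in Prtn3 (5.64), and its stretched minus shortened difference of Elane was -0.66. The stretched piece of in vivo animal 4 was high in Ltf (6.09), and the same animal had a difference of 1.46 in Lcn2. No member's stretch effect was shown to differ between the settings.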

How the results depend on the processing

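Of 661 values under alternatives, 616 kept their direction and their side of the threshold, 30 turned direction, 12 lost and 3 gained a call. In vivo and ex vivo stretch calls of members stayed at 0 throughout. Without the animal block S100a8 in vivo was still 0.52, with adjusted p = 0.981, and the block changed no call of a member. Turned were Ngp in vivo with red cell content as a covariate (0.02), Ngp (0.08) and Elane (0.04) in animals 4 to 7, Ngp (0.11) and Camp (0.13) ex vivo with muscle content, Camp (0.06) and Mpo (-0.01) ex vivo with keratinocyte content, and the difference between settings of Camp with red cell content (0.06). Without centring, Ngp was -0.33 in stretched and -0.27 in shortened tissue and Mpo -0.11 in stretched tissue, and calls over all probes were 3719 higher and 12260 lower in stretched and 3943 and 12607 in shortened tissue, against 7373 and 7246, and 7572 and 7663, with centring. Leaving out replicates gave in vivo -0.06 to 0.09 for Elane, -0.14 to 0.09 for Ngp and -0.11 to 0.01 for Camp. Ex vivo it gave -0.17 to 0.29 for S100a8, -0.20 to 0.02 for S100a9, -0.09 to 0.06 for Mpo, -0.20 to 0.01 for Ngp, -0.26 to 0.08 for Camp and -0.08 to 0.16 for Ltf. For the difference between settings it gave -0.20 to 0.07 for Ngp, -0.21 to 0.13 for Camp and -0.36 to 0.09 for Lcn2, and for Ngp in stretched tissue -0.04 to 0.11. Members called between settings numbered 6 to 7 in stretched and 6 to 8 in shortened tissue. Among probes with a mean of at least 6 only 3 members were tested, of which 2 were called in stretched and 3 in shortened tissue, because fewer genes were tested. Mpo in stretched tissue lost its call without the mean-variance trend (adjusted p = 0.053). The stretch effect ex vivo, fitted with all 22 samples, called 661 probes and 0 members, against 0 probes within the 8 ex vivo samples. Averaging the probes of a gene was not run, as each member has 1. The causes were not tested.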
